A study of Mus musculus with 12 samples.

Results

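The catalytic subunits of the proteasome and the activator that joins the immune form of it were described in mouse brain across 4 genotypes. The 8 genes were chosen by name for their function: the immunoproteasome subunits Psmb8, Psmb9 and Psmb10, their constitutive counterparts Psmb5, Psmb6 and Psmb7, and the activator genes Psme1 and Psme2. Each had 1 probe set, and 7 of the 8 had one annotated to them alone, so 7 of the 12393 genes tested were these. The probe set of Psme2 was also annotated to Psme2b, a closely related gene, so its signal is given as Psme2b/Psme2 and was tested only among all 22626 probe sets.

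RNA came from total brain lysate of adult, untreated mice kept free of specific pathogens, with 1 Affymetrix 3' array per sample and 3 arrays per genotype. The groups were WT mice (wild type), USP18ko mice without Usp18, IFNARko mice without Ifnar1, which encodes a chain of the type I interferon receptor, and USP18ko:IFNARko mice without either gene, called the double knockout here. USP18 takes the ubiquitin-like modifier ISG15 off proteins and dampens the response of this receptor, so the double knockout lacks both the brake and the receptor. The labels name no cell type or promoter that limits either deletion, and they do not say whether replicates were separate animals. If they were not, the p-values reflect technical spread between samples only. In whole-brain RNA, fewer cells of a type and less RNA per cell cannot be told apart.

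The proteasome is a barrel of stacked protein rings that cuts ubiquitin-marked proteins into peptides. Its cutting sites lie in the beta rings, where PSMB6, PSMB7 and PSMB5 carry the caspase-like, trypsin-like and chymotrypsin-like activities of the constitutive form. Interferons are known to induce PSMB9, PSMB10 and PSMB8, which replace PSMB6, PSMB7 and PSMB5 in newly built particles and favour peptides suited to MHC class I molecules. PSME1 and PSME2 form the 11S activator (PA28), a cap that opens the barrel without ATP.

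Promoter sequences of 7 of the 8 genes were held in the RefSeq table for build GRCm38.p6, each 300 bases long with 250 before and 50 after the transcription start. The 4 shown are those of the pair that rose together, of the activator gene Psme1 and, for contrast, of the constitutive gene Psmb5. Capitals mark matches to 3 motifs searched on both strands: the interferon-stimulated response element core GAAANNGAAA, the gamma-activated site TTCNNNGAA and the antioxidant response element core TGANNNNGC.
Psmb8 (chr17:34197945-34198244, plus strand): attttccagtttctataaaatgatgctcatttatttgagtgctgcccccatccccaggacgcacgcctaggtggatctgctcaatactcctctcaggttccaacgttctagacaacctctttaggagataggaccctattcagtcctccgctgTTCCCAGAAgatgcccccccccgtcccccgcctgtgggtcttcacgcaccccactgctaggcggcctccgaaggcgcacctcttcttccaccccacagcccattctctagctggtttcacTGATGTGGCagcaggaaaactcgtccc
Psmb9 (chr17:34187281-34187580, minus strand): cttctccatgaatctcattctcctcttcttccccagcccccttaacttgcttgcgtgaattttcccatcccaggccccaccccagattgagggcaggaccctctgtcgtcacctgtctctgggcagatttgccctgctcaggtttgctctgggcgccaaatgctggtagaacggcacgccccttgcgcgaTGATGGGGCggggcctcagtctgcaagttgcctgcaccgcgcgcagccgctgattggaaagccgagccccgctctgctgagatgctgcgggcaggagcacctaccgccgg
Psme1 (chr14:55578244-55578543, plus strand): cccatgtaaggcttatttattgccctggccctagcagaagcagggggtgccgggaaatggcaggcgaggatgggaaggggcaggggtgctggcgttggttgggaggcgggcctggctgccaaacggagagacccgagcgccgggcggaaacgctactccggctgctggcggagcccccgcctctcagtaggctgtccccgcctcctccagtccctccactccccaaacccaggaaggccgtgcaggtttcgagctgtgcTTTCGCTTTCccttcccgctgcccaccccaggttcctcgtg
Psmb5 (chr14:54617946-54618245, minus strand): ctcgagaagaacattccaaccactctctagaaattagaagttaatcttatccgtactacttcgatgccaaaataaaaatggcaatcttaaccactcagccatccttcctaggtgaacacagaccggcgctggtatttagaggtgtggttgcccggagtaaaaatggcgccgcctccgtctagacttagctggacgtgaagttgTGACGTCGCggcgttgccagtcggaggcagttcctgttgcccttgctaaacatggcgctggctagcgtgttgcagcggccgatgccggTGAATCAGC
Among all 32841 promoter windows, 3.44% held the interferon-stimulated response element core, 8.3% the gamma-activated site and 41.3% the antioxidant response element core. Counted by gene, since a gene can have several windows, the shares were 3.99%, 9.55% and 45.1%. Of the 7 genes, Psme1 held the interferon-stimulated core, as TTTCGCTTTC read on the opposite strand from base 10 after the start. Psmb8 held the gamma-activated site, as TTCCCAGAA from base -97, counted from the start. Matches to the antioxidant core were found in Psmb8, Psmb9, Psmb5, Psmb6 and Psme2, and 0 matches to any of the 3 motifs in Psmb10. Psmb9 and Tap1, a peptide transporter gene, start 226 bases apart on opposite strands, so that their windows share 275 bases. A match shows only that these letters are present in the window.

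The arrays were checked before the comparisons. The Ifnar1 probe set read at least 7.44 in the 6 arrays with the gene intact and at most 6.68 in the 6 without it. The Usp18 probe set was low everywhere, at 4.04 to 4.36 in WT and 3.50 to 3.76 in the other 3 groups, which include IFNARko with an intact Usp18, so it separates WT from the rest only. IFNARko replicate 1 stood apart: its 3' actin probe set exceeded the 5' one by 1.48 log2 units, against 0.20 to 0.54 in the other 11 arrays. The X-linked Xist was high and the Y-linked Eif2s3y low in WT replicate 1 and in replicates 1 and 3 of the double knockout, whereas double knockout replicate 2 had high signals of both. Genotype and sex-linked signals can therefore not be fully told apart in comparisons with the double knockout, and values with Eif2s3y as a covariate are given beside the calls.

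The immunoproteasome genes Psmb8 and Psmb9 were high in every USP18ko array and low in every other array. Psmb8 encodes the subunit that takes the place of PSMB5. Its log2 signals were 5.16, 5.82 and 5.38 in WT, 8.58, 8.19 and 8.16 in USP18ko, 5.37, 5.04 and 4.84 in IFNARko, and 5.06, 5.01 and 5.18 in the double knockout. The lowest USP18ko array lay 2.34 log2 units above the highest of the other 9 arrays, and those 9 arrays overlapped across their 3 genotypes. The mean of the USP18ko arrays was 8.31 ± 0.24, against 5.46 ± 0.34 for WT, 5.08 ± 0.27 for IFNARko and 5.08 ± 0.08 for the double knockout (SD, n = 3 each).

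Psmb9 encodes the subunit that takes the place of PSMB6. Its log2 signals were 5.30, 5.79 and 5.46 in WT, 8.64, 8.02 and 8.31 in USP18ko, 5.61, 5.14 and 5.08 in IFNARko, and 5.10, 5.19 and 5.34 in the double knockout. Again only the USP18ko arrays were high, with 2.23 log2 units between the lowest of them and the highest other array. The USP18ko mean was 8.32 ± 0.31, against 5.52 ± 0.25 for WT, 5.28 ± 0.29 for IFNARko and 5.21 ± 0.12 for the double knockout (SD, n = 3 each). Both genes tracked each other closely over the 12 arrays (Pearson r = 0.997), and also over the 9 arrays outside USP18ko (r = 0.952), values that are given as a description, since arrays of a genotype are not independent conditions.

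Against WT, Psmb8 rose in USP18ko by 2.85 on the log2 scale (SE 0.18, 95% interval 2.46 to 3.24, limma adjusted p = 8.59e-07) and Psmb9 by 2.81 (SE 0.18, 2.41 to 3.21, adjusted p = 1.10e-06). These differences were 2.80 and 2.77 with Eif2s3y as a covariate (limma adjusted p = 3.46e-06 and 4.62e-06). By p-value without the covariate, Psmb8 and Psmb9 ranked 15 and 18 among the 12393 genes. They were the 2 called of the 7 genes with a probe set of their own, where called means an adjusted p under 0.05. Over all genes tested 1.15% were called higher. Of the 7, 4 had an unadjusted limma p under 0.05, as did 4.6% of all genes. These were Psmb8, Psmb9, Psmb10 and Psme1. The median difference of the 7 was 0.33, beside -0.02 over all genes. In WT, 30.4% of probe sets had a lower mean signal than Psmb8 and 31.1% a lower one than Psmb9. No detection call was at hand, so how much of these WT signals was background was not measured, and the log2 difference is given in place of a fold.

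In mice that also lacked the receptor, no such difference was seen. In the double knockout Psmb8 fell by 3.22 (SE 0.18, limma adjusted p = 2.24e-07) and Psmb9 fell by 3.11 (SE 0.18, adjusted p = 3.34e-07) relative to USP18ko, the 2 called of the 7 in a comparison that called 1.48% of all genes lower. With Eif2s3y as a covariate these differences were -3.09 (adjusted p = 1.01e-05) and -3.00 (adjusted p = 1.54e-05). Without the covariate 3 of the 7 had an unadjusted limma p under 0.05 in this comparison, as did 4.95% of all genes. Relative to IFNARko, loss of Usp18 left Psmb8 at a difference of 0.00 (95% interval -0.39 to 0.39) and Psmb9 at -0.07 (-0.47 to 0.33). The interaction, USP18ko minus WT less USP18ko:IFNARko minus IFNARko, was 2.85 for Psmb8 (SE 0.26, limma adjusted p = 5.26e-05) and 2.88 for Psmb9 (SE 0.26, adjusted p = 5.26e-05). These were the 2 called of the 7, and 0.823% of all genes had a called interaction of this sign. Without IFNARko replicate 1 the interactions were 2.71 for each of them, and with the Eif2s3y covariate 2.63 and 2.70, with adjusted p-values of 0.00279 and 0.00283.

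Psmb10 encodes the subunit that takes the place of PSMB7, and its differences were smaller. Its log2 signals were 8.06, 8.96 and 8.60 in WT, 9.28, 8.99 and 9.08 in USP18ko, 8.41, 8.29 and 8.44 in IFNARko, and 8.57, 8.53 and 8.62 in the double knockout. The 3 USP18ko arrays were the highest of the 12, but the lowest of them was only 0.03 above WT replicate 2. Psmb8, Psmb9 and Psmb10 were the 3 of the 7 higher in every USP18ko array than in every WT array, beside 4.07% of all genes. The WT arrays ran from 8.06 to 8.96 (8.54 ± 0.46), while IFNARko (8.38 ± 0.08) and the double knockout (8.58 ± 0.04) were tight and USP18ko stood at 9.12 ± 0.15 (SD, n = 3 each).

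The difference of Psmb10 between USP18ko and WT was 0.58 (SE 0.18, 95% interval 0.19 to 0.96) and did not pass the limma test over all genes (adjusted p = 0.330). Its size rested on the WT arrays: without WT replicate 2 it was 0.79 and passed (limma adjusted p = 0.0213), and without WT replicate 1 it was 0.34 (adjusted p = 0.697). Without both WT replicate 1 and IFNARko replicate 1 it was also 0.34 (adjusted p = 0.315). Over all alternatives its adjusted p ran from 0.0213 to 0.912. The double knockout differed from USP18ko by -0.54 (SE 0.18, adjusted p = 0.358), or by -0.29 with the Eif2s3y covariate (adjusted p = 0.999). That difference did pass without WT replicate 1, which leaves its size as it is and narrows the shared spread, and in 4 other settings, with adjusted p-values from 0.00327 to 1.00 over all alternatives. In the arrays of both groups alone it passed by limma without the replicate block (adjusted p = 0.0141) and with it (adjusted p = 0.0148), whereas with the block in all 12 arrays it did not (adjusted p = 0.5003). The interaction of Psmb10 was 0.38 (SE 0.25, adjusted p = 0.941).

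**Figure D1:**
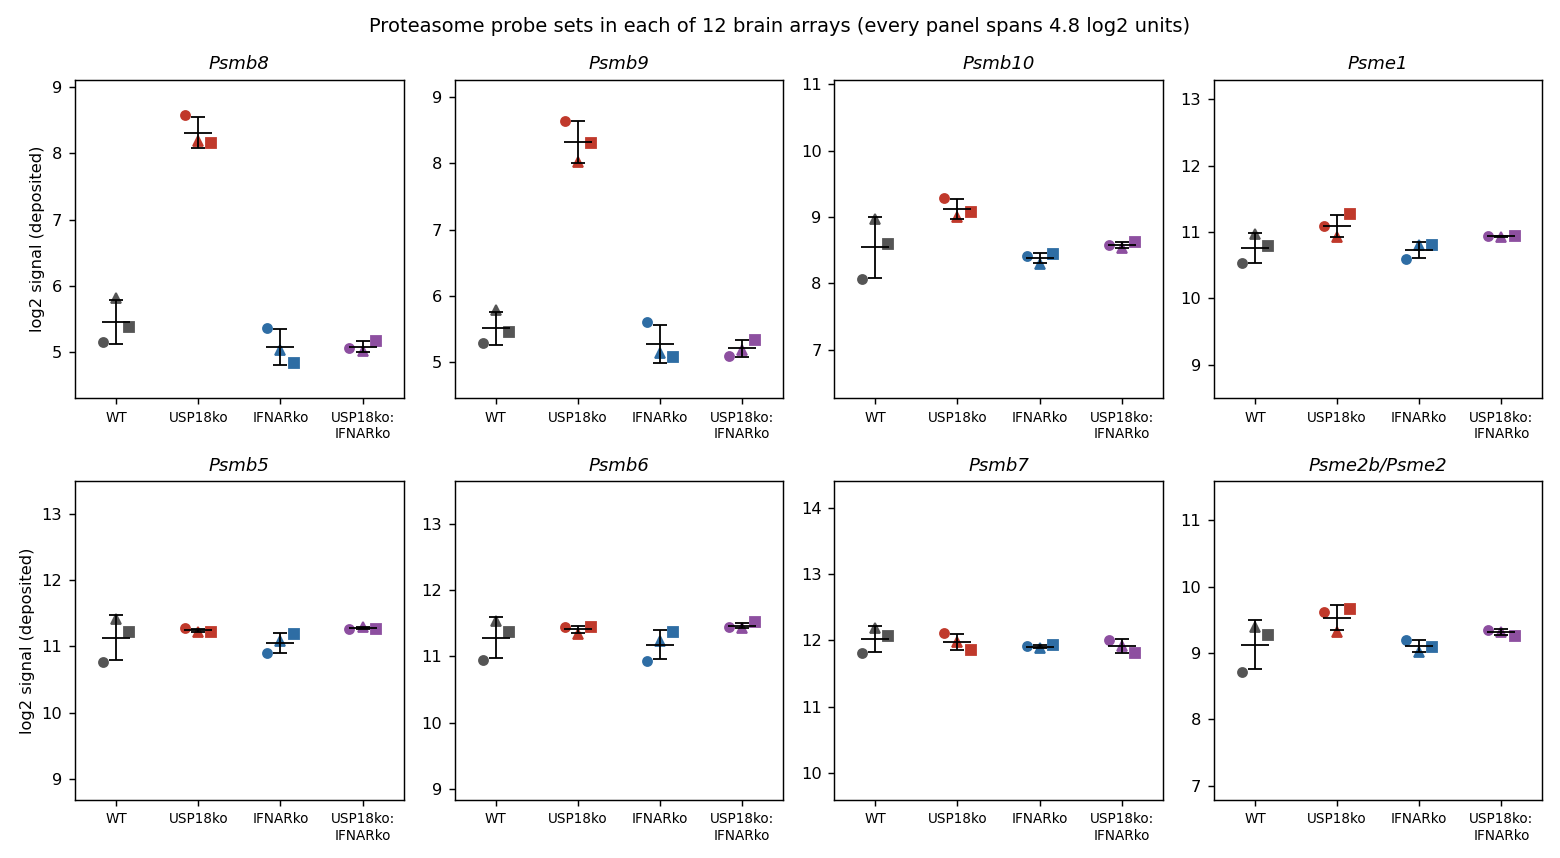
Deposited log2 signal (vertical axis) of the 8 proteasome probe sets in each of the 12 arrays by genotype (horizontal axis). Circles, triangles and squares are replicates 1, 2 and 3, horizontal lines are means and error bars SD (n = 3), and every panel spans the same number of log2 units. Psmb8 and Psmb9 stand above all other arrays in USP18ko, by 2.34 and 2.23 log2 units, and the remaining panels show much smaller differences.

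The activator genes had small differences in the same comparison. Psme1 read 10.53, 10.97 and 10.79 in WT, 11.08, 10.93 and 11.27 in USP18ko, 10.60, 10.80 and 10.80 in IFNARko, and 10.93, 10.92 and 10.94 in the double knockout on the log2 scale. The USP18ko and WT arrays overlapped. The difference between them was 0.33 (SE 0.13, 95% interval 0.05 to 0.61), with a limma adjusted p of 0.748 over all genes. The Psme2b/Psme2 probe set read 8.71, 9.40 and 9.27 in WT, 9.62, 9.33 and 9.67 in USP18ko, 9.20, 9.02 and 9.09 in IFNARko, and 9.35, 9.32 and 9.26 in the double knockout. Its USP18ko arrays also overlapped WT, through WT replicate 2. Its difference was 0.41 (SE 0.16, 95% interval 0.06 to 0.76), with an adjusted p of 0.954 over all probe sets, of which 0.968% were called higher. For both activator probe sets the double knockout lay between WT and USP18ko on average, at 0.17 and 0.19 above WT (adjusted p = 0.995 and 0.996).

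Psme1, Psme2 and Irf9, the last a transcription factor of the interferon response, are close neighbours on chromosome 14, with Emc9 between both activator genes in the RefSeq order. Irf9 rose by 0.88 in USP18ko (SE 0.12, limma adjusted p = 0.00100), while Emc9 differed by 0.04 (SE 0.18, adjusted p = 1.00). The neighbours of the 8 genes were looked up after the results had been seen. Of the promoters printed above, that of Psme1 held the interferon-stimulated core, and those of Psmb8 and Psmb9 held no match to these letters within the window.

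The constitutive subunits were high in every array. Psmb5 read 10.76, 11.41 and 11.22 in WT, 11.27, 11.22 and 11.22 in USP18ko, 10.89, 11.08 and 11.19 in IFNARko, and 11.26, 11.29 and 11.27 in the double knockout. Psmb6 read 10.94, 11.54 and 11.37 in WT, 11.44, 11.35 and 11.44 in USP18ko, 10.94, 11.23 and 11.37 in IFNARko, and 11.45, 11.44 and 11.51 in the double knockout. In both genes the USP18ko arrays lay within the range of the WT arrays. Psmb7 read 11.81, 12.19 and 12.06 in WT, 12.10, 11.97 and 11.86 in USP18ko, 11.91, 11.88 and 11.92 in IFNARko, and 12.01, 11.92 and 11.80 in the double knockout. Its 4 groups overlapped as well.

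None of the 3 passed in any of the 6 comparisons. Between USP18ko and WT the limma difference was 0.11 for Psmb5 (SE 0.14, 95% interval -0.21 to 0.42), 0.13 for Psmb6 (SE 0.15, -0.20 to 0.45) and -0.04 for Psmb7 (SE 0.12, -0.29 to 0.21). These intervals reach at most 0.45 upward and -0.29 downward and leave out the size of the differences of Psmb8 and Psmb9. Without WT replicate 1 the differences of Psmb5 and Psmb6 turned to -0.08 and -0.05. The levels of Psmb5 and Psmb6 followed each other over the 12 arrays (r = 0.970), whereas Psmb5 and Psmb8 did so less (r = 0.249).

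**Figure D2:**
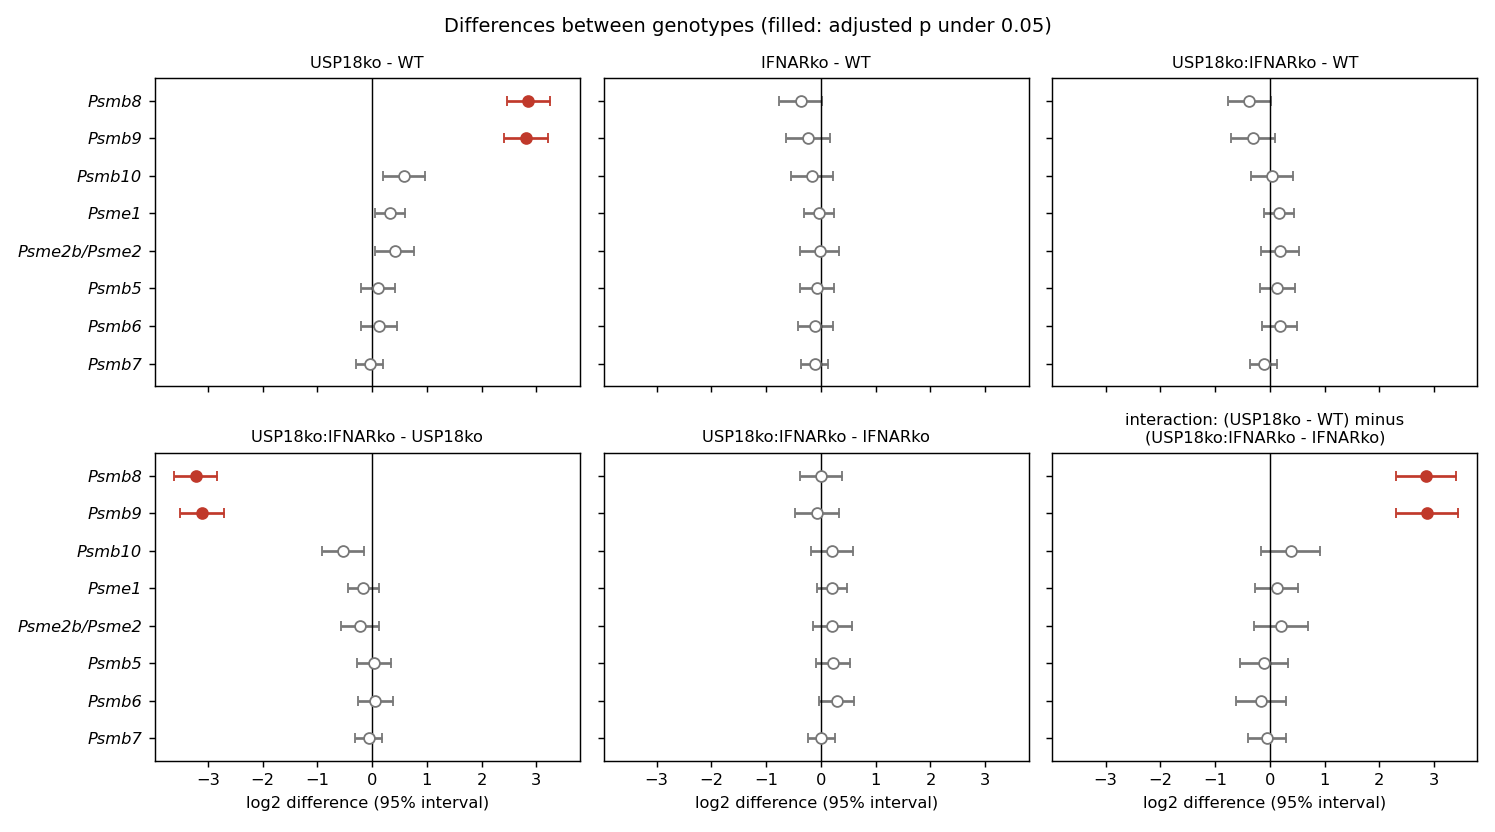
Log2 differences between genotypes (horizontal axis) with 95% intervals from limma for the 8 probe sets (rows) in the 6 comparisons. Filled points have an adjusted p under 0.05: these are Psmb8 and Psmb9 in USP18ko minus WT, in the double knockout minus USP18ko and in the interaction, and the intervals of the constitutive subunits include 0 in every panel.

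Set against its counterpart in the same array, each immunoproteasome subunit stood higher in USP18ko than in WT. The quantity is the log2 difference of both probe sets within an array. Levels of different probes are not on a common scale, so it is taken relative to its WT mean. It reuses the levels given above and is a description with no test. Psmb8 relative to Psmb5 stood at 2.98, 2.64 and 2.61 in the USP18ko arrays (2.75 ± 0.21, SD, n = 3), at -0.30 ± 0.42 in IFNARko and at -0.51 ± 0.09 in the double knockout. Psmb9 relative to Psmb6 stood at 2.96, 2.44 and 2.64 (2.68 ± 0.27), at -0.13 ± 0.51 and at -0.49 ± 0.09. All USP18ko arrays lay far above the WT arrays, which ranged from -0.16 to 0.12 for these pairs.

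Psmb10 relative to Psmb7 stood at 0.66, 0.50 and 0.70 in USP18ko (0.62 ± 0.10, SD, n = 3), at -0.04 ± 0.06 in IFNARko and at 0.15 ± 0.14 in the double knockout. Here the WT arrays ranged from -0.27 to 0.25. The USP18ko arrays were thus above every other array for all 3 pairs, and the shift of the third pair was the smallest. In that pair the lowest USP18ko array stood at 0.50 and the highest other array, in the double knockout, at 0.30. How often other pairs of genes separate in this way was not counted.

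**Figure D3:**
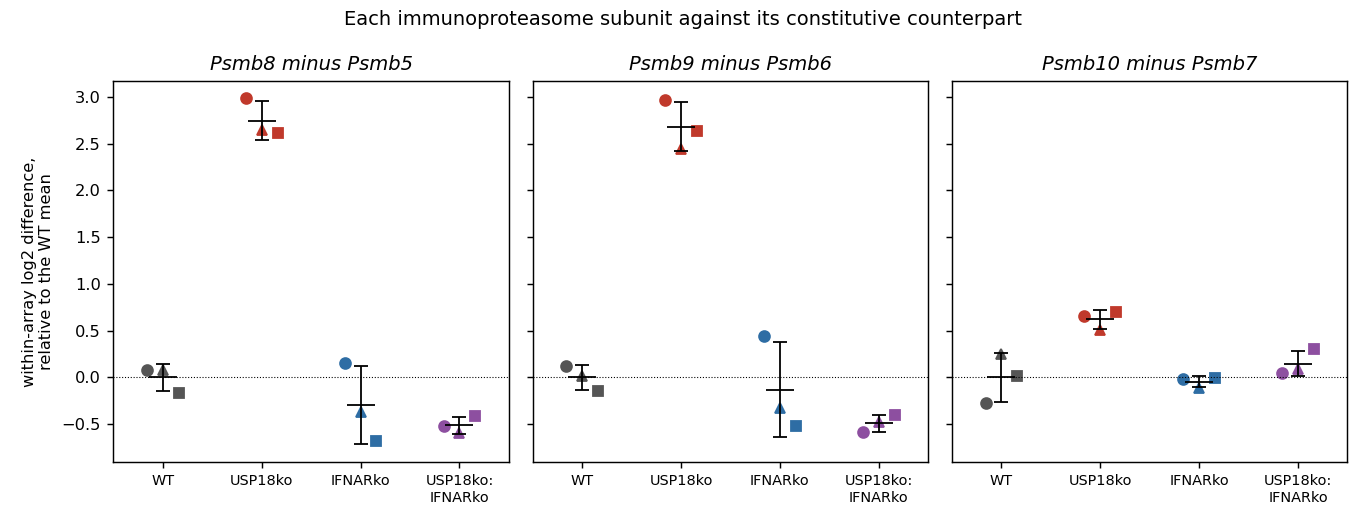
Each immunoproteasome subunit minus its constitutive counterpart within an array (vertical axis, log2 difference relative to the WT mean) by genotype (horizontal axis). Points are arrays, with circles, triangles and squares for replicates 1, 2 and 3, lines are means and error bars SD (n = 3); USP18ko means are 2.75, 2.68 and 0.62 from left to right.

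In the comparisons without a called gene among the 7, the differences were small. IFNARko differed from WT by -0.37 for Psmb8 (SE 0.18, limma adjusted p = 0.520) and by -0.24 for Psmb9 (SE 0.18, adjusted p = 0.627), with 0 of 7 called and 0 at an unadjusted p under 0.05. In that comparison 0.00807% of all genes were called and 9.79% had an unadjusted p under 0.05. The double knockout differed from WT by -0.37 for Psmb8 and -0.31 for Psmb9 (SE 0.18 each, adjusted p = 0.995 each), again with 0 of 7 called and 0 at an unadjusted p under 0.05, beside 0.0161% and 4.09% of all genes. Both genes were thus lower on average without the receptor than in WT, by amounts that did not pass the test, and the arrays of these groups overlapped.

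Between the double knockout and IFNARko, limma called 0 of the 7 and 0% of all genes, and 0 of the 7 and 8.25% of all genes had an unadjusted p under 0.05. Psmb10, Psmb5, Psmb6 and Psme1 were higher in every double knockout array than in every IFNARko array, by 0.20, 0.21, 0.29 and 0.20 on average. These were 4 of the 7, beside 9.28% of all genes separated in this direction. The Psme2b/Psme2 probe set was separated too, by 0.21 on average, as were 8.61% of all probe sets. IFNARko replicate 1 was the lowest of its group in 3 of the 8 probe sets, and in 30.2% of all genes.

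The spread in WT had a pattern common to the 8 probe sets. WT replicate 1 was the lowest and WT replicate 2 the highest WT array in 8 of 8, against 20.2% of all genes and 21 of the 40 other proteasome genes measured. WT replicate 1 was also the one WT array with a high Xist signal, and WT replicate 2 had a mean level of the oligodendrocyte markers of 9.84, against 7.44 and 6.93 in the other WT arrays. The microglia markers had mean levels of 6.47, 7.56 and 7.12 in WT replicates 1, 2 and 3, in the order of the 8 probe sets. The choroid plexus and ependyma markers, at 7.59, 8.04 and 7.67, had this order too. The oligodendrocyte markers were lowest in replicate 3. The part of any of these in the WT spread was not tested. The WT spread was widest for Psmb10 (SD 0.46), Psme2b/Psme2 (0.37), Psmb5 (0.34) and Psmb8 (0.34).

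The rest of the proteasome was taken from lists of 42 genes, of which 40 were measured. Limma called 0 of the 40 in each of the 6 comparisons, and in USP18ko minus WT 1 of the 40, Psme3, had an unadjusted p under 0.05, as did 4.6% of all genes. The median difference between USP18ko and WT was -0.01 over the 40, beside -0.02 over all genes. It was 0.06 in the 8 genes of the alpha ring, which gates the barrel, and 0.20 in the 4 non-catalytic genes of the beta ring. It was -0.04 in the 6 ATPases of the 19S cap, which unfold substrates, and -0.03 in 14 of the 15 remaining 19S subunits. It was 0.13 in the 5 assembly chaperones and -0.06 in the 3 genes for other activators and an inhibitor.

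The largest difference in each of these groups was small beside those of Psmb8 and Psmb9. They were 0.18 for Psma2 (SE 0.14), 0.31 for Psmb3 (SE 0.21), -0.15 for Psmc1 (SE 0.10), -0.13 for Psmd1 (SE 0.13), and 0.43 for Psmg4, an assembly chaperone (SE 0.30), each with a limma adjusted p of 1.00. Psme3, whose product forms the nuclear PA28 gamma cap, differed by -0.25 (SE 0.10, limma adjusted p = 0.846). Its log2 signals were 8.73, 8.57 and 8.49 in WT and 8.40, 8.36 and 8.29 in USP18ko, groups that did not overlap, as was the case in the lower direction for 5.88% of all genes.

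**Figure D4:**
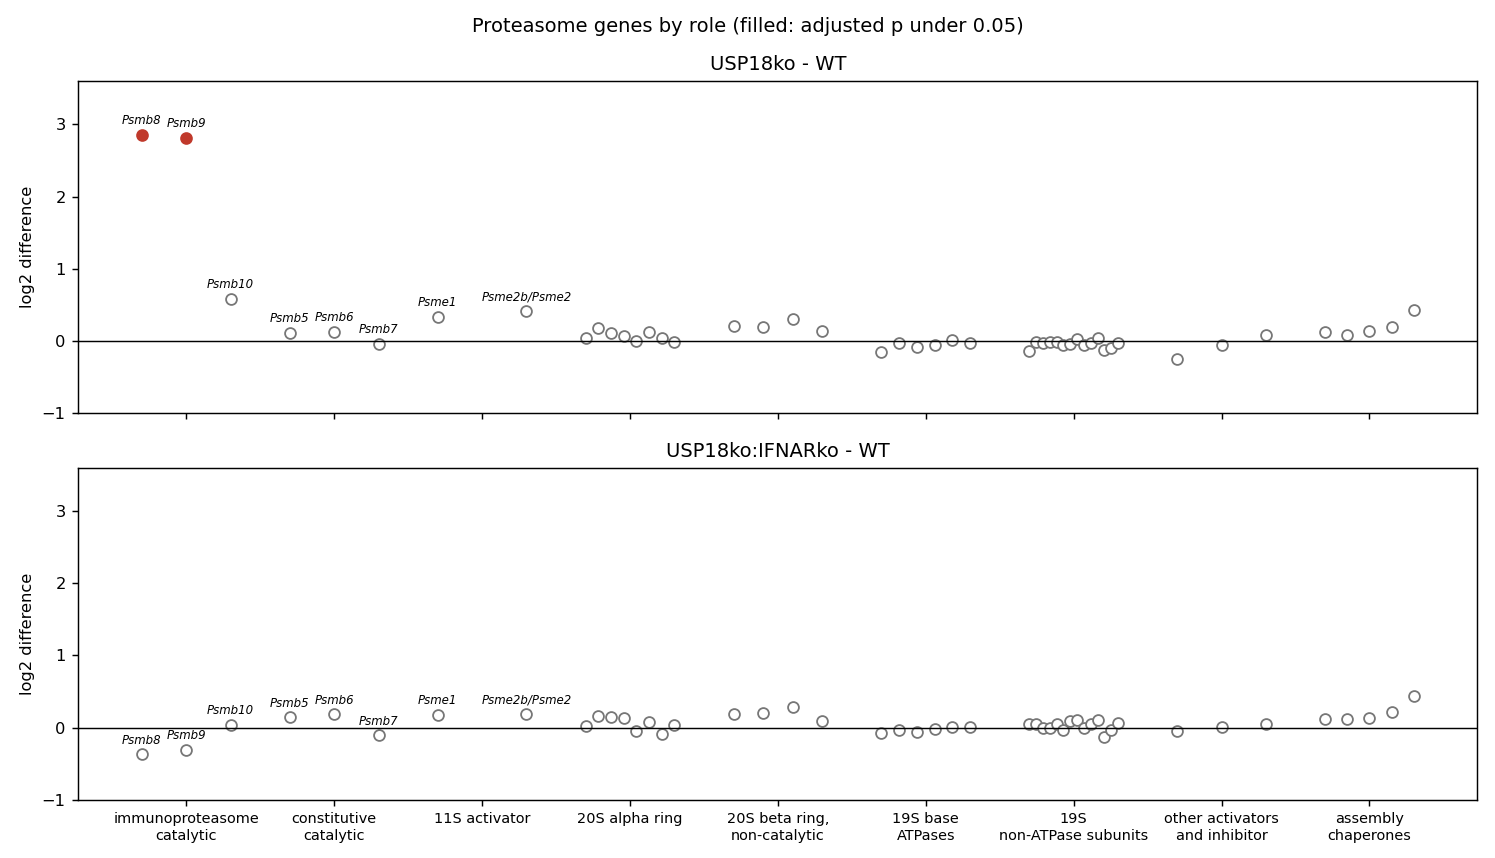
Log2 difference (vertical axis) of proteasome genes grouped by role (horizontal axis) in USP18ko minus WT (top) and USP18ko:IFNARko minus WT (bottom); each point is 1 gene and filled points have an adjusted p under 0.05. Psmb8 and Psmb9 stand at 2.85 and 2.81 in the top panel, while the 40 other genes lie between -0.25 and 0.43.

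Genes that handle the peptides after the proteasome were taken from a list of 11, all measured, which covers transport, trimming and class I presentation. Of these, 6 rose in USP18ko against WT and 0 fell, with a median of 0.82, beside 1.15% of all genes called higher. The heavy chain genes H2-K1 and H2-D1 rose by 1.85 (SE 0.17, limma adjusted p = 2.39e-05) and 1.88 (SE 0.20, adjusted p = 1.11e-04). B2m, the class I light chain, rose by 2.28 (SE 0.28, adjusted p = 4.22e-04), and Tap2, a subunit of the peptide transporter, by 1.08 (SE 0.11, adjusted p = 8.57e-05). In the double knockout 7 of the 11 fell relative to USP18ko (median -0.99), beside 1.48% of all genes called lower. A called interaction was found for 6 (median 0.87), beside 0.823% of all genes with one of this sign. In the comparisons of IFNARko with WT and of the double knockout with WT or IFNARko, 0 of the 11 were called, with 3, 0 and 0 at an unadjusted p under 0.05. Over all genes 9.79%, 4.09% and 8.25% had an unadjusted limma p under 0.05 in these comparisons.

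Psmb8 and Psmb9 lie among these genes on chromosome 17, in the order Psmb9, Tap1, Psmb8, Tap2. Tap1, looked up as a neighbour after its value was seen, read 6.31, 6.01 and 5.96 in WT and 7.68, 7.28 and 7.87 in USP18ko. It rose by 1.52 (SE 0.19, limma adjusted p = 5.10e-04), less than Psmb9, with which it shares most of the promoter window. The class II genes on either side differed among themselves: H2-DMb2 by -0.06 (SE 0.14, adjusted p = 1.00), H2-Ab1 by 0.58 (SE 0.21, adjusted p = 0.626), and H2-Aa by 1.73 (SE 0.33, adjusted p = 0.0156), which passed.

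Of the transcription factors of interferon and class I genes, 8 were tested. Over all genes 1.15% were called higher in USP18ko than in WT, and 1.48% lower in the double knockout than in USP18ko. In USP18ko 3 of the 8 rose against WT and 0 fell: Irf7 by 3.40 (SE 0.12, limma adjusted p = 4.71e-09), Irf8 by 0.96 (SE 0.13, adjusted p = 0.00116) and Irf9 by 0.88. In the double knockout 4 fell relative to USP18ko, the fourth being Irf1 (-0.86, SE 0.16, adjusted p = 0.0134), a factor known to act on Psmb9. Irf1 read 6.65, 6.78 and 6.75 in WT and 7.42, 7.11 and 7.58 in USP18ko, a difference of 0.64 (SE 0.16, adjusted p = 0.126). The groups of Irf1 did not overlap, as in 4.07% of all genes in the higher direction. Ubd, which encodes the ubiquitin-like modifier FAT10, differed by 0.36 (SE 0.14, adjusted p = 0.846). Limma called 0 of the 7 associated enzymes and shuttles, 0 of the 6 cytosolic peptidases and 0 of the 3 stress factors of the proteasome in USP18ko against WT, with 0 in each at an unadjusted p under 0.05.

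Some markers of microglia were also higher in USP18ko, and the list was mixed. The median difference from WT was 0.80 over the 13 measured. Of these, 9 had an unadjusted limma p under 0.05, as did 4.6% of all genes. Called higher were 4 of the 13, beside 1.15% of all genes. They were Aif1 by 1.93 (SE 0.29), Laptm5 by 1.25 (SE 0.21), Itgam by 0.80 (SE 0.14) and C1qa by 1.79 (SE 0.36). The other 9 were not called and ran from -0.35 for P2ry12 to 1.60 for C1qc. Among them the homeostatic markers Gpr34, Fcrls, Cx3cr1 and Tmem119 differed by -0.28, 8.7e-04, 0.35 and 0.41. In the double knockout 5 of the 13 were called lower than in USP18ko (median -0.72), beside 1.48% of all genes. In that comparison 10 of the 13 had an unadjusted limma p under 0.05, as did 4.95% of all genes. The mean log2 level of the list was 6.47 to 7.56 in WT, 7.51 to 8.20 in USP18ko, 6.86 to 7.00 in IFNARko and 6.88 to 6.90 in the double knockout. Within USP18ko the list was lowest in replicate 1 (7.51), the array with the highest Psmb8, Psmb9 and Psmb10. Within WT it was lowest in replicate 1 (6.47) and highest in replicate 2 (7.56), as were these genes. Of the perivascular macrophage markers 1 of 8 rose (Ms4a7, by 1.74, SE 0.15), with list means of 5.60 to 6.08 in WT, 6.27 to 6.61 in USP18ko, 6.11 to 6.53 in IFNARko and 5.71 to 5.98 in the double knockout. On this list IFNARko replicate 1, the array set apart by its actin probe sets, read 6.53, within the USP18ko range. IFNARko replicates 2 and 3 read 6.11 and 6.18, above the WT arrays and below the USP18ko arrays. Of the 8 perivascular markers, 3 had an unadjusted limma p under 0.05 in USP18ko against WT.

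In USP18ko against WT 1.15% of all genes were called higher and 4.6% had an unadjusted limma p under 0.05. Of the monocyte and neutrophil markers 1 of 7 rose (Plac8, by 3.35, SE 0.32), and 4 of the 7 had an unadjusted limma p under 0.05. The list means were 4.17 to 4.36 in WT, 5.24 to 5.47 in USP18ko, 4.13 to 4.77 in IFNARko and 4.18 to 4.93 in the double knockout. The lymphocyte markers had 0 of 11 called and 0 at an unadjusted p under 0.05, with list means of 4.66 to 4.71 in WT, 4.57 to 4.86 in USP18ko, 4.51 to 4.85 in IFNARko and 4.57 to 4.71 in the double knockout. Limma called 0 of the astrocyte, oligodendrocyte, neuron, endothelial and choroid plexus markers in USP18ko against WT, with 1 of them, an astrocyte marker, at an unadjusted p under 0.05. The part of cell numbers in the differences of Psmb8 and Psmb9 was not tested.

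The genes whose levels were most alike over the 12 arrays differed between the subunits. Psmb8 was closest to Rsad2 and Ifi27l2a (Pearson r = 0.995 each), Ifit3 (0.993), Oas1a (0.992) and Cxcl10 (0.992). Psmb9 was closest to Ifi35 (0.994), Oas1a, Ifit3 and Cxcl10 (0.993 each) and Rsad2 (0.992). These r values include the gap between USP18ko and the other arrays. Psmb10 was closest to Cyba (0.933), Vamp8 (0.931), Tyrobp (0.929), Rhog (0.921) and B2m (0.913). Psme1 was closest to Ror1 (0.938), Clic1 (0.909), Tagln2 (0.902), Trir (0.893) and Psmb4 (0.884), and Psme2b/Psme2 to Psmb4 (0.921), Rgs10 (0.906), Srrd (0.900), Vamp8 (0.895) and Flywch2 (0.894). They are descriptions over arrays that share genotypes and processing, with no test.

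By mean level the order of the genotypes was USP18ko, WT, double knockout, IFNARko for Psmb8 and USP18ko, WT, IFNARko, double knockout for Psmb9. Only the first step was called in either order, by 2.85 and 2.81, and the lower 3 groups overlapped. For Psmb10 the order was USP18ko, double knockout, WT, IFNARko, with no step called. The order of the constitutive genes Psmb5 and Psmb6 was double knockout, USP18ko, WT, IFNARko, with steps of at most 0.13, none of them called.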

How the data were processed

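Transcript levels were measured with 12 Affymetrix arrays, 3 for each of 4 genotypes. The authors deposited 1 log2 signal for each probe set and array, and the submitters' processing notes name the R package affy. Neither their background correction nor their normalization is stated in the sources used. That the log has base 2 was read from the values, which ran from 2.36 to 13.81. No detection calls were used, and precision is limited by the number of arrays.

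Of 22690 probe sets, 64 controls were left out. In the platform annotation 20380 had 1 gene, 691 several, and 1555 are unnamed here. Where a gene had several probe sets, the one of highest mean signal stood for it (12393 genes). All comparisons came from 1 fit with limma 3.58.1 (lmFit, contrasts.fit, eBayes) in R 4.3.3, which held genotype alone and all 12 arrays, with 8 residual and 4.67 prior degrees of freedom. P-values were two-sided and adjusted by Benjamini-Hochberg over all genes (probe sets for Psme2b/Psme2). An exact test of 3 against 3 arrays cannot go below p = 0.1. Named were all 8 genes, Usp18 and Ifnar1, up to 4 called genes with the smallest p of each list, the largest difference in each list of other proteasome genes, called markers, and the 5 genes most alike by Pearson r. Exceptions are Xist and Eif2s3y, the chromosomal neighbours (Tap1 among them), Irf1, Ubd and 6 microglia markers with uncalled values, and genes given for their promoters. The genes and lists were chosen with earlier results of these data known. Same-numbered arrays deviated together between USP18ko and the double knockout, where all 3 same-number pairs correlated at 0.14 to 0.27 and the 6 other pairs at -0.23 to 0.10; this pairing comes from the replicate numbers in the labels, which do not say what they mark. In the other pairs of groups, at most 2 of 3 same-number pairs were over 0.1. The fit was also run on simulated data with independent normal noise, of the same spread for a gene in all arrays. That run cannot speak to arrays of unequal quality or to deviations that arrays share. Promoters are from RefSeq (GRCm38.p6). Alternatives were other probe set summaries, a filter at the 40th percentile of mean signal, added normalization, array weights, the replicate block, an Eif2s3y covariate, 2 groups alone, each array left out, and, chosen after seeing the data, 2 arrays left out together and the replicate block in USP18ko and the double knockout alone.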

Additional observations from a re-analysis of the deposited data

Results flagged for a closer look

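The effect of losing Usp18 differed between mice with and without the interferon receptor gene for 2 of the 8 proteasome genes, by the limma interaction test. For Psmb8 the difference between both effects was 2.85 on the log2 scale (SE 0.26, adjusted p = 5.26e-05): 2.85 with the receptor gene and 0.00 without it. For Psmb9 it was 2.88 (SE 0.26, adjusted p = 5.26e-05): 2.81 with the receptor gene and -0.07 without it. Over all alternatives that could be run, the adjusted p ran from 4.91e-06 to 0.00279 for Psmb8 and from 5.10e-06 to 0.00283 for Psmb9. The double knockout arrays differ from most others in sex-linked signals, as given above.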

How the results depend on the processing

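The calls of Psmb8 and Psmb9 were kept under every alternative that gave them a value, with USP18ko minus WT at 2.71 to 3.04 and 2.65 to 2.96 on the log2 scale. The filter at the 40th percentile of mean signal removed both genes, so the number called became 0 in USP18ko minus WT, in the double knockout minus USP18ko and in the interaction. The number called rose to 3, by Psmb10, in 1 alternative for USP18ko minus WT and in 5 for the double knockout minus USP18ko. With the replicate block the members called stayed at 2, 0, 0, 2, 0 and 2, and genes called in USP18ko minus WT numbered 142 against 143. The block in USP18ko and the double knockout alone called 347 genes, against 287 in the same arrays without it, and 3 members in each case. Psmb10 was called in the arrays of both groups alone with and without the block. When all arrays were fitted, it was uncalled in this comparison with and without the block. The block thus changed no call among these genes. In the other comparisons the arrays share only a number.

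Of 48 single results, 27 never turned sign; the 21 that did were all uncalled, and the cause was not tested. Psme2b/Psme2 was called with array weights alone, at 0.29 in USP18ko minus WT, -0.18 in IFNARko minus WT and 0.23 in the double knockout minus IFNARko; the estimation of these weights stopped before its tolerance was reached. In the double knockout minus IFNARko, Psmb8 turned to -0.024 with quantile normalization and -0.012 with median centring, Psmb7 to -0.014 and -0.0065, and Psmb9 to 0.079 with array weights and 0.067 with the Eif2s3y covariate. Psmb10 in the double knockout minus WT turned to -0.045 with array weights. With the Eif2s3y covariate the interactions of Psmb10, Psme1 and Psme2b/Psme2 turned to -0.022, -0.055 and -0.18, and the double knockout minus USP18ko to 0.054 for Psmb7 and 0.012 for Psme2b/Psme2.

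With 1 array left out, or IFNARko replicate 1 left out together with WT replicate 1 or double knockout replicate 2, IFNARko minus WT ranged from -0.42 to 0.050 for Psmb10, -0.26 to 0.067 for Psmb5, -0.28 to 0.022 for Psmb6, -0.15 to 0.073 for Psme1 and -0.28 to 0.11 for Psme2b/Psme2. USP18ko minus WT ranged from -0.080 to 0.25 for Psmb5, -0.046 to 0.25 for Psmb6 and -0.15 to 0.040 for Psmb7. The double knockout minus WT ranged from -0.20 to 0.25 for Psmb10, -0.047 to 0.28 for Psmb5 and -0.023 to 0.32 for Psme2b/Psme2, and minus IFNARko from -0.12 to 0.18 for Psmb8, -0.17 to 0.11 for Psmb9 and -0.043 to 0.061 for Psmb7. The interaction ranged from -0.29 to 0.034 for Psmb5, -0.16 to 0.033 for Psmb7 and -0.055 to 0.34 for Psme2b/Psme2. With 3 arrays a group, the 95% interval of Psmb8 in USP18ko minus WT spanned 2.46 to 3.24, and the files used here give no background signal.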
